A study of Mus musculus with 15 samples.

Results

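Genes of zinc and copper transport and the metallothioneins were followed in sorted mouse small intestinal epithelium before birth and in the adult. The set held every gene of the in vivo count table from the zinc transporter families Slc30 and Slc39 and the copper transporter family Slc31, with the copper pumps Atp7a and Atp7b and the metallothioneins Mt1 to Mt4. It came to 32 of the 24587 genes with a symbol. Of these, 28 had enough counts to be tested beside 13311 genes in all, and Mt3, Mt4, Slc30a3 and Slc39a12 did not.

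Fetal epithelium came from the proximal intestine of C57Bl/6J embryos at E16.5 and its live cells were gated for EpCAM while endothelial CD31 and leukocyte CD45 were gated out (3 libraries). Adult crypt epithelium came from wildtype C57Bl/6J mice, from crypts of the proximal 20% of the small intestine, gated for EpCAM and mid-level CD24 without lineage markers (3 libraries). The labels give no treatment for either group and no genotype for the fetal one. Sort gate, the tissue taken (crypts in the adult only) and age changed together, so they cannot be told apart. The library kit is stated for the adult libraries only, so a difference in kit cannot be told apart from age either. The other 9 libraries of the series are organoids whose table carries no gene identifiers, and they were not analysed here.

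Zinc enters the cytosol through ZIP proteins, encoded by the Slc39 genes, and leaves it across the plasma membrane or into organelles through ZnT proteins, encoded by the Slc30 genes. In the enterocyte, dietary zinc is taken up by ZIP4 on the lumen side and exported to the blood side by ZnT1. Copper enters through CTR1, encoded by Slc31a1, and is pumped into the secretory pathway or out of the cell by ATP7A and ATP7B. Metallothioneins are small cysteine-rich proteins that bind both metals, and their genes are classical targets of the zinc-sensing transcription factor MTF1, which binds metal response elements.

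Matches to that element were counted in windows taken before annotated starts of these genes. The core was searched as TGCACNC and TGCGCNC on both strands of the 250 bases before each start in the RefSeq promoter table (GRCm38.p6), and 28 of the 32 genes had such a window. These starts are often inner ones: of 33 windows, 11 lay wholly before the RefSeq gene interval, 12 partly inside it and 10 wholly inside it. The windows of Mt2 and Slc30a10 end right before the gene interval. The windows of Mt2 and Slc30a10 are shown because both genes were at least 2-fold higher in fetal epithelium and each held 3 matches. For Mt1 the 30 bases around the single match in its window are shown. Capitals mark the matches, in 5′ to 3′ order on the strand of the gene, and a capital run longer than the core is a pair of overlapping matches on opposite strands.

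Mt2, chr8:94172368-94172617, plus strand: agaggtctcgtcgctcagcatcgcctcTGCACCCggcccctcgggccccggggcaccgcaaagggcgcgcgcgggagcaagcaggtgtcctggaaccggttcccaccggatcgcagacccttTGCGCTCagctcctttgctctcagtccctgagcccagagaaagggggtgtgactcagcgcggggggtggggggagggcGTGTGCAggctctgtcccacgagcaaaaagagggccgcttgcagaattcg
Mt1, chr8:94179055-94179084, plus strand: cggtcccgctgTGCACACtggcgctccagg
Slc30a10, chr1:185454598-185454847, plus strand: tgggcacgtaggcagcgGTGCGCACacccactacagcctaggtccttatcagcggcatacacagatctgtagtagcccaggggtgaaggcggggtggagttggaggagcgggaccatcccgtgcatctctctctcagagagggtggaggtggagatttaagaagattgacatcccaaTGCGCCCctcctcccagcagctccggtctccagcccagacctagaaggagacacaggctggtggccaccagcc

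At least 1 match was found for 14 of the 24 tested genes of the set with a window, beside 33.8% of the 10573 tested genes with one, whose windows may likewise reach into the gene. Counting only windows wholly before the gene, 5 of 8 tested genes of the set held a match. No share over all tested genes was computed for such windows, so this count cannot be set against the 33.8%. At least 3 matches were found for 2.50% of the 10573 tested genes. A match is a run of letters and not evidence of binding. The match printed for Mt1 lies inside the RefSeq gene interval, which begins before the start its window was taken from. That window ends at base 94179088, and bases of Mt1 after it were not searched. The count of 1 for Mt1 therefore holds for that window only and is not a count of its metal response elements.

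Across the set, fetal epithelium had more RNA of metallothioneins, of copper transporters and of several zinc transporters, and less of a small group of ZIP genes. Of the 28 tested genes, 15 were higher and 4 lower in fetal epithelium at an adjusted p under 0.05 (edgeR quasi-likelihood test, Benjamini-Hochberg adjustment over all tested genes). Over all tested genes, 54.8% were called, 29% higher and 25.9% lower. The median log2 fold change was 0.39 for the 28 genes and 0.01 for all tested genes. Changes of at least 2-fold upward were called for 6 of the 28, Mt1, Mt2, Atp7b, Slc30a8, Slc30a10 and Slc39a2, beside 15.9% of all tested genes. Slc30a8 and Slc39a2, with 0 and 15 adult counts, had enough counts for the test only through the fetal libraries. Their direction was therefore set by their entry into the test, and their calls are no independent result. The most negative log2 fold change was −0.69, for Slc39a4. In 17 of the 28 every fetal library lay above every adult library, beside 32.7% of all tested genes, and in 5 every fetal library lay below, beside 29.6%.

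**Figure D1:**
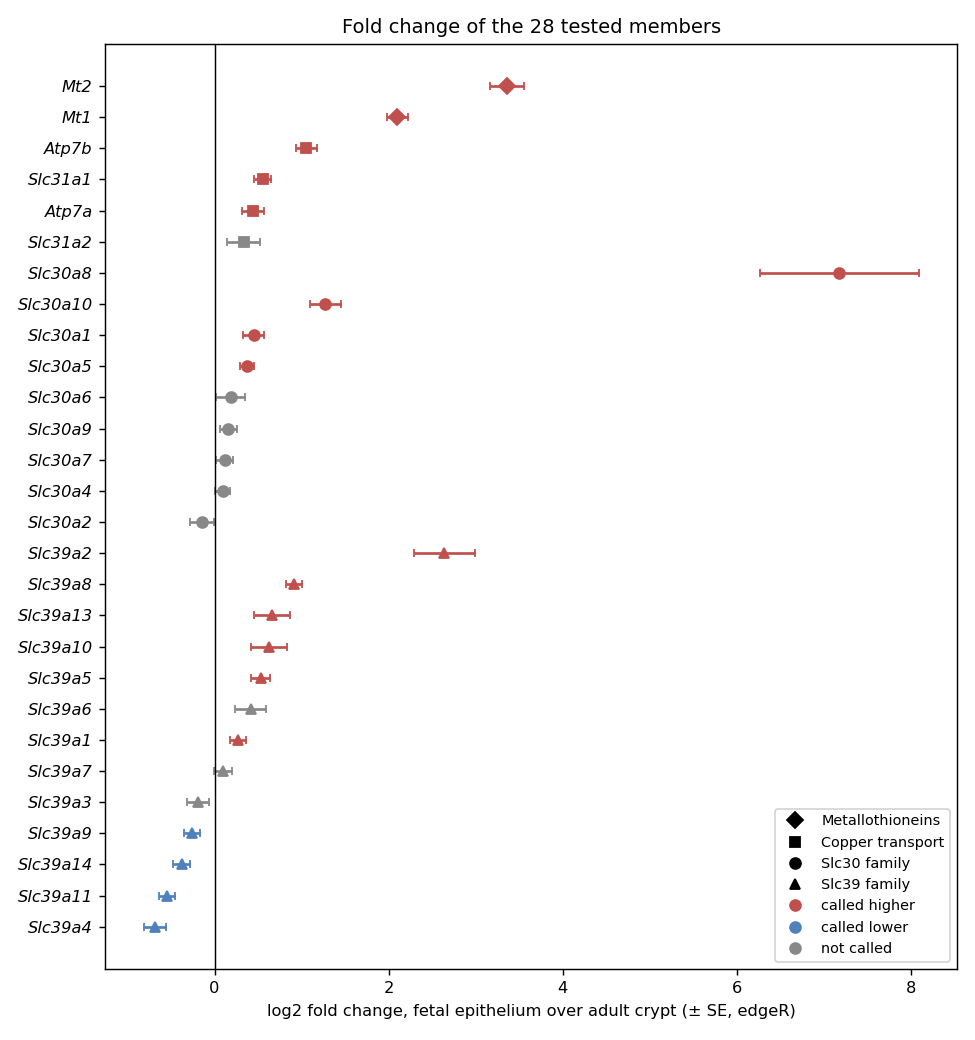
Log2 fold change of fetal over adult crypt epithelium with its standard error for each tested gene, by family and within a family from the highest to the lowest. The metallothioneins stand at 2.10 and 3.36, all 4 copper genes are right of 0, and the 4 genes called lower all belong to the Slc39 family; the value of Slc30a8 is fitted against 0 adult counts and its size depends on the fit.

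The libraries held 7888998 to 10538004 counts for fetal and 5795518 to 6045113 counts for adult crypt epithelium. All 8 epithelial markers, Epcam and Vil1 among them, were detected in both groups, and they summed to 4724 to 4820.4 CPM (read counts scaled to the adjusted library total) in fetal and 7005 to 7432 CPM in adult libraries, with 7 of the 8 called lower in fetal epithelium. Summed markers of other cells moved with the comparison. Of 14 pancreatic acinar genes 11 were tested and all 11 called higher, and the list summed to 1710.3, 3591 and 1759 CPM in fetal replicates 1 to 3, against 5.30 to 7.13 CPM in adult libraries, where Cela3b, Prss2 and Try4 had 0 counts. The 10 mesenchyme genes, of which all 9 tested were called higher, summed to 148 to 208 CPM against 7.26 to 15.9 CPM, erythroid genes to 31.6 to 55.6 against 0.509 to 1.38 CPM, leukocyte genes to 18.0 to 21.8 against 10.9 to 12.05 CPM, and stomach genes to 27.1, 25.8 and 312 CPM in fetal replicates 1 to 3 against 1.77 to 3.90 CPM. Paneth cell genes went the other way, with 28.4 to 46.2 CPM in fetal and 167 to 249.6 CPM in adult libraries. The leukocyte sum was mostly Csf1r, at 14.3 CPM on average in fetal and 8.71 CPM in adult libraries. Only 2 of the 8 leukocyte genes were tested, Csf1r and Laptm5, both called higher. From few counts, Cd3e and Coro1a had higher fetal means, while Ptprc, Cd52, Cd79a and Tyrobp had lower ones. The stomach sum was mostly Cym, at 23.2, 20.7 and 274 CPM in fetal replicates 1 to 3. Of 7 stomach genes 3 were tested, of which Cym and Tff1 were called higher and Pgc was not called. The part of pancreatic, mesenchyme, blood, stomach and Paneth cells in the differences was not tested. In bulk RNA, fewer cells of a type and less RNA per cell cannot be told apart.

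The metallothioneins showed the most marked difference among the abundant genes of the set. Mt1 (chromosome 8, 94178883 to 94180327 in GRCm38) stood at 405, 417 and 364 CPM in the fetal libraries, against 74.8, 94.7 and 108 CPM in the adult crypt libraries. The lowest fetal library was over 3 times the highest adult one. Its log2 fold change was 2.10 ± 0.12 (SE), or 4.28-fold, with an adjusted p of 1.29e-08 (edgeR), and 9.05% of all tested genes had a larger one. Mt2 (chromosome 8, 94172618 to 94173567) stood at 125, 126 and 103 CPM in the fetal libraries, against 10.8, 7.30 and 16.4 CPM in the adult ones. Its log2 fold change was 3.36 ± 0.19, or 10.2-fold, with an adjusted p of 1.39e-08 (edgeR), and 5.46% of all tested genes had a larger one. Over all alternatives Mt1 ran from 1.96 to 2.22 and Mt2 from 3.10 to 3.71.

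Mt3, the metallothionein of brain, had 9 counts over the fetal libraries against 1 over the adult ones. Mt4, known from stratified squamous epithelium, had 10 counts against 1. Both are neighbours of Mt1 and Mt2 on chromosome 8. Neither was tested, and their counting ratios of 5.84 and 6.49 had exact 95% intervals of 0.810 to 256 and 0.924 to 282, which cover counting error only.

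The ratio of the metallothioneins was lower in every fetal library. Mt1 over Mt2 CPM was 3.25, 3.31 and 3.53 in the fetal libraries and 6.93, 13.0 and 6.56 in the adult crypt libraries. The groups do not overlap, and fetal libraries lay close together while adult replicate 2, with the fewest Mt2 counts, stood above its group. An exact two-sided permutation test gave p = 0.1, the smallest that 3 against 3 libraries allow, so no ratio could pass 0.05, and the adjusted value over the 3 ratios computed was 0.1 as well. An antisense transcript, Gm45774, overlaps 432 exonic bases of Mt2, and with the strand setting not known its reads cannot be told apart from those of Mt2.

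**Figure D2:**
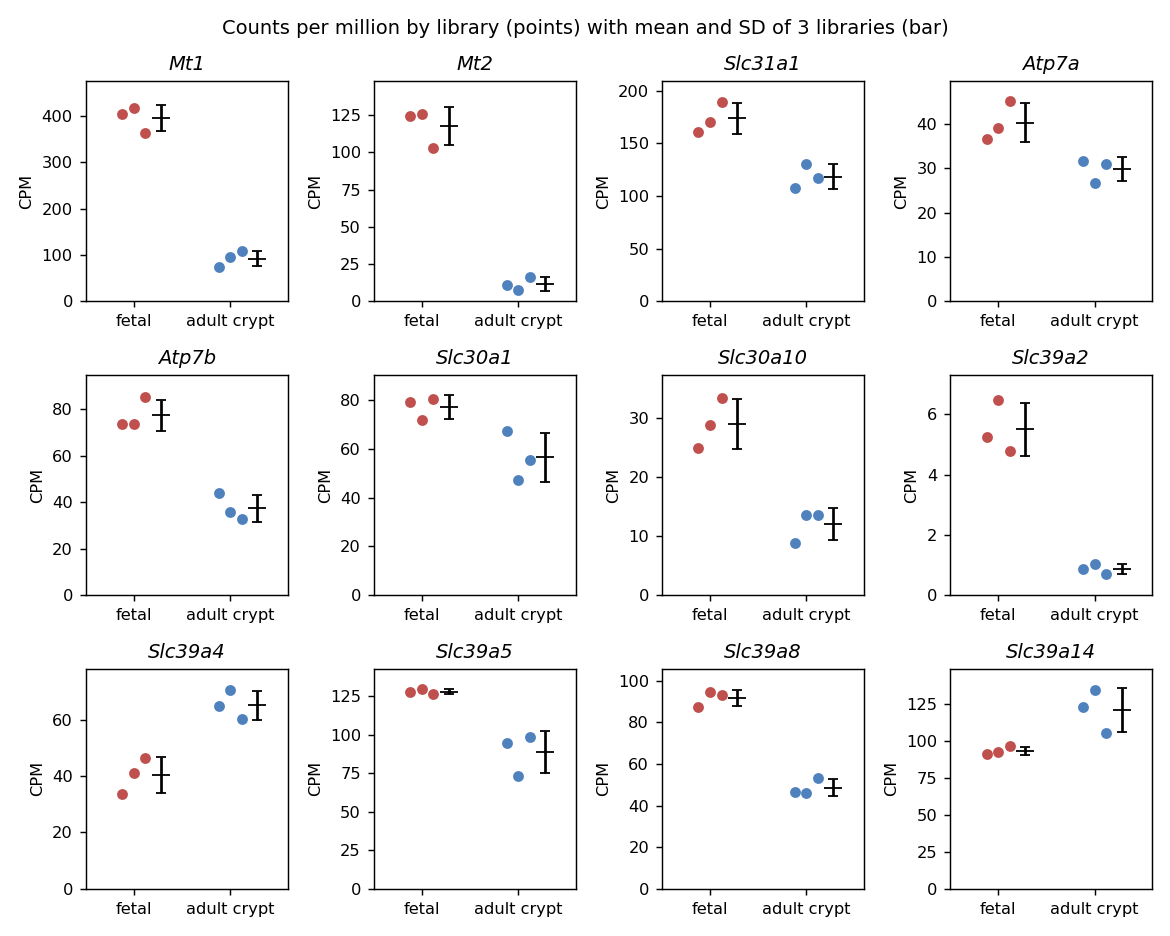
CPM of 12 genes of the set in each library, fetal on the left and adult crypt on the right of each panel, with the mean and SD of 3 libraries as a bar. The groups stand apart in all 12 panels, with fetal libraries higher in 10 and lower for Slc39a4 and Slc39a14.

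Of 5 transcription factors known to act on Mt1 or Mt2, 3 were lower in fetal epithelium and the other two were not called, with a list median of −0.35, beside 25.9% lower over all tested genes. Mtf1, the zinc sensor, averaged 43.8 ± 3.61 CPM in fetal libraries and 43.4 ± 3.56 CPM in adult ones (SD, n = 3 each), with a log2 fold change of 0.02 ± 0.11. Nr3c1, the glucocorticoid receptor, was at 153 ± 4.40 against 328 ± 35.5 CPM, giving a log2 difference of −1.10 ± 0.09. Usf1, a basic helix-loop-helix factor, and Nfe2l2, the oxidant-responsive factor NRF2, were lower, with log2 fold changes of −0.73 ± 0.14 and −0.35 ± 0.10.

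Genes that respond to heavy metals and oxidants alongside metallothioneins were split. Of the 8 listed, 3 were higher and 3 lower, with a median of −0.09, beside 29% higher and 25.9% lower over all tested genes. The heat shock genes Hspa1a and Hspa1b, near-identical copies whose reads may be split between them, were at 312 ± 55.9 and 376 ± 68.2 CPM in fetal and at 2.25 ± 1.66 and 6.52 ± 1.94 CPM in adult crypt epithelium. The haem oxygenase gene Hmox1 was also higher and averaged 2.92 ± 1.13 CPM in fetal libraries and 0.405 ± 0.108 CPM in adult ones (SD, n = 3 each). The genes called lower were the oxidant-response genes Nqo1, Srxn1 and Txnrd1, with Nqo1 at a log2 fold change of −0.70 ± 0.16. The glutathione synthesis subunits Gclc and Gclm were not called, with log2 fold changes of −0.14 ± 0.12 and −0.05 ± 0.10.

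All 4 copper transport genes leaned to the fetal side, and 3 of them were called higher, beside 29% higher over all tested genes. Slc31a1, which encodes the copper importer CTR1, was at 161, 171 and 189.5 CPM in the fetal libraries and at 107, 131 and 117 CPM in the adult crypt libraries. The groups do not overlap, and the log2 fold change was 0.55 ± 0.10 (edgeR adjusted p = 3.08e-04). Atp7b, the copper pump mutated in Wilson disease, was at 73.6, 73.8 and 85.2 CPM in the fetal and 44.0, 35.6 and 32.7 CPM in the adult libraries, a log2 fold change of 1.05 ± 0.12 (adjusted p = 7.96e-06, edgeR). Atp7a, the pump mutated in Menkes disease that moves copper out of enterocytes toward the blood, was at 36.7, 39.2 and 45.1 CPM in the fetal and 31.6, 26.6 and 30.9 CPM in the adult libraries. All fetal libraries lay above the adult ones here too, by a smaller margin, and the log2 fold change was 0.44 ± 0.12 (edgeR adjusted p = 0.00761). Slc31a2, a relative of CTR1 in endosomes, was at 9.85, 11.8 and 10.0 CPM in the fetal and 7.60, 8.31 and 9.16 CPM in the adult libraries, and its log2 fold change of 0.34 ± 0.19 was not called (edgeR adjusted p = 0.150).

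The ratio of the pumps was higher in every fetal library. Atp7b over Atp7a CPM was 2.01, 1.89 and 1.89 in the fetal libraries and 1.39, 1.34 and 1.06 in the adult crypt libraries, with no overlap (exact two-sided permutation p = 0.1, adjusted 0.1). Since this ratio is of CPM, it compares libraries and not the levels of the 2 genes.

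**Figure D3:**
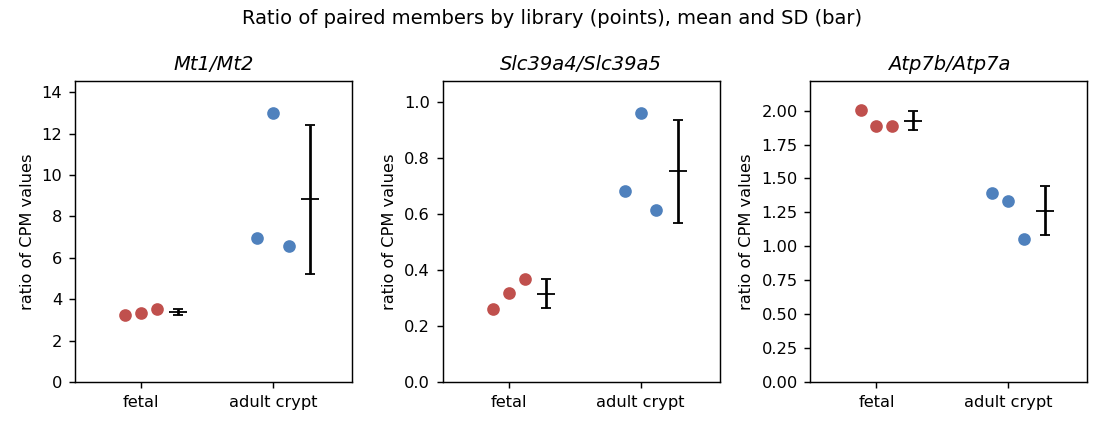
Ratio of CPM values of 3 gene pairs in each library, fetal on the left and adult crypt on the right, with the mean and SD of 3 libraries as a bar. Mt1/Mt2 and Slc39a4/Slc39a5 are lower in every fetal library than in any adult one, and Atp7b/Atp7a is higher.

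Of 18 copper chaperones, reductases and oxidases 16 were tested, of which 5 were higher and 4 lower, with a median of 0.14. These counts are near the 29% higher and 25.9% lower over all tested genes. Cox19, a mitochondrial copper protein of cytochrome oxidase assembly, averaged 46.9 ± 0.466 CPM in fetal libraries and 20.6 ± 0.732 CPM in adult ones (SD, n = 3 each), a log2 fold change of 1.19 ± 0.11. Heph, the copper-dependent ferroxidase hephaestin of the enterocyte, was higher with a log2 value of 0.72 ± 0.10. Sco1, which delivers copper to cytochrome oxidase, was lower at −0.74 ± 0.10, and Steap3, a metalloreductase, was at 1.98 ± 0.654 against 27.0 ± 4.11 CPM, giving a log2 difference of −3.80 ± 0.24.

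Enzymes that receive copper in the secretory pathway were few in number and uneven. Of 12 listed, 6 could be tested, of which 3 were higher and 1 lower, beside 29% and 25.9% over all tested genes, and Dbh and Tyr had 0 counts in every library. Pam, which amidates peptide hormones, was at 82.7, 98.8 and 95.5 CPM in the fetal libraries against 20.3, 15.3 and 24.0 CPM in the adult ones, a log2 fold change of 2.22 ± 0.14. Aoc1, the histamine-degrading diamine oxidase, was at 87.2, 80.9 and 93.3 CPM against 235, 216 and 294 CPM, giving a log2 difference of −1.51 ± 0.11. Loxl2, a lysyl oxidase of matrix-forming cells, and Sod3, the extracellular superoxide dismutase, were higher from low levels, with 333 fetal against 4 adult counts and 62 against 7. Mesenchyme markers were higher in the same libraries (148 to 208 against 7.26 to 15.9 CPM in sum), and their part in these values was not tested.

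In the Slc30 family, 4 of 9 tested genes were higher in fetal epithelium and the other 5 were not called, with a median log2 fold change of 0.18. Over all tested genes, 29% were higher. The 4 were Slc30a1, Slc30a5, Slc30a8 and Slc30a10, the last of which exports manganese rather than zinc. Slc30a1, which encodes the plasma membrane exporter ZnT1, was at 79.2, 71.7 and 80.5 CPM in the fetal libraries and 67.2, 47.2 and 55.3 CPM in the adult crypt libraries. The nearest libraries of the groups were close to each other, and the log2 fold change was 0.45 ± 0.12 (edgeR adjusted p = 0.00639). The antisense gene 1700034H15Rik overlaps 468 of its exonic bases. Slc30a5, whose product ZnT5 brings zinc into the early secretory pathway, was at 104 ± 2.83 against 80.1 ± 3.93 CPM (SD, n = 3 each), a log2 fold change of 0.37 ± 0.08. Its partner Slc30a6 and the related Slc30a7, which act in the same compartment, had log2 fold changes of 0.18 ± 0.17 and 0.12 ± 0.10 and were not called. Gm43106 and Gm6649 overlap 637 and 1165 exonic bases of Slc30a7 on the other strand.

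Slc30a10, a family member that exports manganese rather than zinc in liver and intestine, was at 24.9, 28.8 and 33.4 CPM in the fetal libraries, against 8.84, 13.6 and 13.7 CPM in the adult ones. The groups are well apart, and the log2 fold change was 1.27 ± 0.18 (edgeR adjusted p = 5.43e-05). Gm2061 overlaps 533 of its exonic bases on the other strand, and reads there cannot be assigned.

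Slc30a8 encodes ZnT8, the zinc transporter of insulin granules. It had 22, 19 and 24 counts in the fetal libraries (2.74, 2.37 and 2.25 CPM) and 0 counts in each adult library. Against a floor of 3 counts over the adult group it was at least 14.2-fold higher (edgeR adjusted p = 5.33e-05). Slc30a8 had enough counts for the test only through the fetal libraries, so it could be called only higher. Insulin RNA was present in the same libraries, with Ins2 at 71.9, 74.2 and 43.7 CPM and Ins1 at 36.2, 33.8 and 24.1 CPM in fetal replicates 1 to 3, against 0 and 1 counts over the adult libraries. The islet hormone Iapp had 709 against 2 counts. The 5 islet hormone genes, which include Gcg of gut endocrine cells, summed to 139 to 191 CPM in fetal and 28.8 to 67.5 CPM in adult libraries, and 3 of the 4 tested were called higher. The part of islet cells in the Slc30a8 value was not tested.

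The remaining ZnT genes were not called. Slc30a2, a vesicle transporter of acinar and Paneth cells, was at 17.4 ± 1.10 CPM in fetal libraries and 19.3 ± 0.485 CPM in adult ones (SD, n = 3 each), a log2 fold change of −0.14 ± 0.14. Acinar markers were higher and Paneth markers lower in those fetal libraries, and their part in this value was not tested. Slc30a4, of endosomal vesicles, and Slc30a9, of mitochondria, had log2 fold changes of 0.09 ± 0.08 and 0.16 ± 0.10. Slc30a3, the synaptic vesicle transporter, had too few reads for the test, with 7 fetal and 8 adult counts.

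The ZIP family held the genes called lower. Of 13 tested Slc39 genes, 6 were higher and 4 lower in fetal epithelium, beside 29% and 25.9% over all tested genes, with a median log2 fold change of 0.27. Slc39a4, the luminal zinc importer ZIP4 whose loss causes acrodermatitis enteropathica in humans, was at 33.6, 41.0 and 46.4 CPM in the fetal libraries against 64.7, 70.4 and 60.2 CPM in the adult ones. Every fetal library was below every adult one, and the log2 fold change was −0.69 ± 0.12 (edgeR adjusted p = 3.87e-04). Slc39a5, which encodes ZIP5 of the blood-facing membrane of enterocytes and of pancreatic acinar cells, was at 128, 129 and 127 CPM in the fetal libraries against 94.7, 73.3 and 98.2 CPM in the adult ones. The groups do not overlap, and the log2 fold change was 0.53 ± 0.11 (edgeR adjusted p = 8.96e-04). Acinar markers summed to 1710.3 to 3591 CPM in the fetal and 5.30 to 7.13 CPM in the adult libraries, and their part in the Slc39a5 value was not tested.

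The pair thus shifted in opposite directions. The ratio of Slc39a4 to Slc39a5 CPM was 0.262, 0.317 and 0.367 in the fetal libraries and 0.683, 0.961 and 0.613 in the adult crypt libraries. The groups do not overlap, which follows from the separation of both genes in opposite directions and is no further result. The exact two-sided permutation test therefore had to give p = 0.1 (adjusted 0.1), the smallest possible.

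The ZIP proteins that also carry manganese and iron went apart as well. Slc39a8, encoding ZIP8, was at 87.4, 94.5 and 92.9 CPM in the fetal libraries and 46.5, 46.0 and 53.2 CPM in the adult ones, a log2 fold change of 0.92 ± 0.09 (adjusted p = 3.04e-06, edgeR). Slc39a14, encoding ZIP14, was at 90.7, 92.0 and 96.3 CPM against 123, 134 and 105 CPM, and its log2 fold change was −0.38 ± 0.10 (edgeR adjusted p = 0.00533). The groups did not overlap for either gene. Of 4 other manganese transporters 2 were higher and 1 lower, with a median of 0.09, beside 29% and 25.9% over all tested genes. Slc11a2, the divalent metal importer DMT1, was at 54.3, 54.5 and 94.7 CPM in the fetal libraries against 34.1, 39.7 and 32.7 CPM in the adult ones, so that fetal replicate 3 stood far above the rest. Tmem165 of the Golgi was higher and the Golgi pump Atp2c1 lower, with log2 fold changes of 0.26 ± 0.09 and −0.27 ± 0.11.

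Slc39a2, an importer of the plasma membrane, was the ZIP gene with the largest log2 fold change, at low levels. It stood at 5.24, 6.49 and 4.78 CPM in the fetal libraries and at 0.884, 1.02 and 0.692 CPM in the adult ones, from 145 and 15 counts. The log2 fold change was 2.64 ± 0.35 (edgeR adjusted p = 3.05e-05). Slc39a2 had enough counts for the test only through the fetal libraries, so it could be called only higher.

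Slc39a1, Slc39a10 and Slc39a13 were higher by smaller amounts. Slc39a10, a plasma membrane importer, was at 40.9, 36.8 and 40.4 CPM in the fetal libraries against 22.4, 37.0 and 17.1 CPM in the adult ones, so that adult replicate 2 reached the fetal range. Its log2 fold change of 0.62 ± 0.21 was 0.99 without that library, and it was not called without adult replicate 1 (adjusted p = 0.0799) or 3 (adjusted p = 0.0654) in edgeR. Slc39a13, of the early secretory pathway, was at 11.4 ± 0.283 against 7.19 ± 1.75 CPM (SD, n = 3 each), while Slc39a1, of the plasma membrane, was at 72.5 ± 2.27 against 60.3 ± 3.97 CPM. Slc39a1 lost its call in 4 of 12 alternatives, without fetal replicate 1 or 2 or adult replicate 2 or 3 (edgeR adjusted p = 0.0505 to 0.0940), and Slc39a13 in 1 of 12, without adult replicate 1 (edgeR adjusted p = 0.0653). Psmc3 overlaps 97 exonic bases of Slc39a13 on the other strand. Slc39a9 and Slc39a11, both described in the Golgi, were lower with log2 fold changes of −0.26 ± 0.10 and −0.55 ± 0.09. Slc39a9 lost its call in 7 of 12 alternatives and was at −0.16 without fetal replicate 1, and Erh overlaps 459 of its exonic bases on the other strand.

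Slc39a7, the zinc release channel ZIP7 of the endoplasmic reticulum, had the highest mean of the ZIP genes per transcript length in both groups and was not called. It stood at 140, 156 and 159 CPM in the fetal libraries and 138, 160.3 and 127 CPM in the adult ones, a log2 fold change of 0.10 ± 0.10, and Gm20427 on the same strand shares 1995 of its exonic bases. Slc39a6 was at 17.9 ± 3.39 against 13.4 ± 0.641 CPM (SD, n = 3 each) and missed the threshold (edgeR adjusted p = 0.0613), and Slc39a3 had a log2 fold change of −0.19 ± 0.13. Slc39a12, a transporter of brain, had 2 fetal and 0 adult counts.

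Of 9 other zinc genes listed 8 were tested, of which 3 were higher and 2 lower, with a median of 0.13, beside 29% higher and 25.9% lower over all tested genes. Tmem163, a vesicle zinc transporter, and Mcoln1, a lysosomal cation channel that passes zinc, were higher with log2 fold changes of 2.22 ± 0.33 and 1.07 ± 0.17, and the channel kinase Trpm7 by 0.24 ± 0.08. Crip1, a zinc-binding LIM protein of the intestine, was at 11.9, 16.1 and 15.7 CPM in the fetal libraries against 57.4, 61.4 and 53.2 CPM in the adult ones, a log2 fold change of −1.98 ± 0.13. Gpr39, the zinc-sensing receptor, was lower at −0.32 ± 0.12.

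Scaled to transcript length, Mt1 led in both groups, with 720.0 ± 50.6 CPM per kb in fetal and 168 ± 30.2 CPM per kb in adult crypt epithelium (SD, n = 3 each). Mt2 had rank 2 in fetal epithelium at 231 ± 25.2 CPM per kb, apart from its neighbours in every library, and rank 11 in adult crypts at 22.5 ± 9.01 CPM per kb, where its libraries overlapped the next gene. Slc39a7 and Slc39a5 followed at 65.2 ± 4.39 and 63.2 ± 0.720 CPM per kb in fetal epithelium and did not separate, whereas in adult crypts they stood at 61.0 ± 7.43 and 43.8 ± 6.66 CPM per kb with no overlap. Slc31a1 came next in both groups, at 46.7 ± 3.88 and 31.9 ± 3.13 CPM per kb. Slc39a4 was at rank 14 in fetal and rank 10 in adult cells, in both cases without separation from its lower neighbour.

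**Figure D4:**
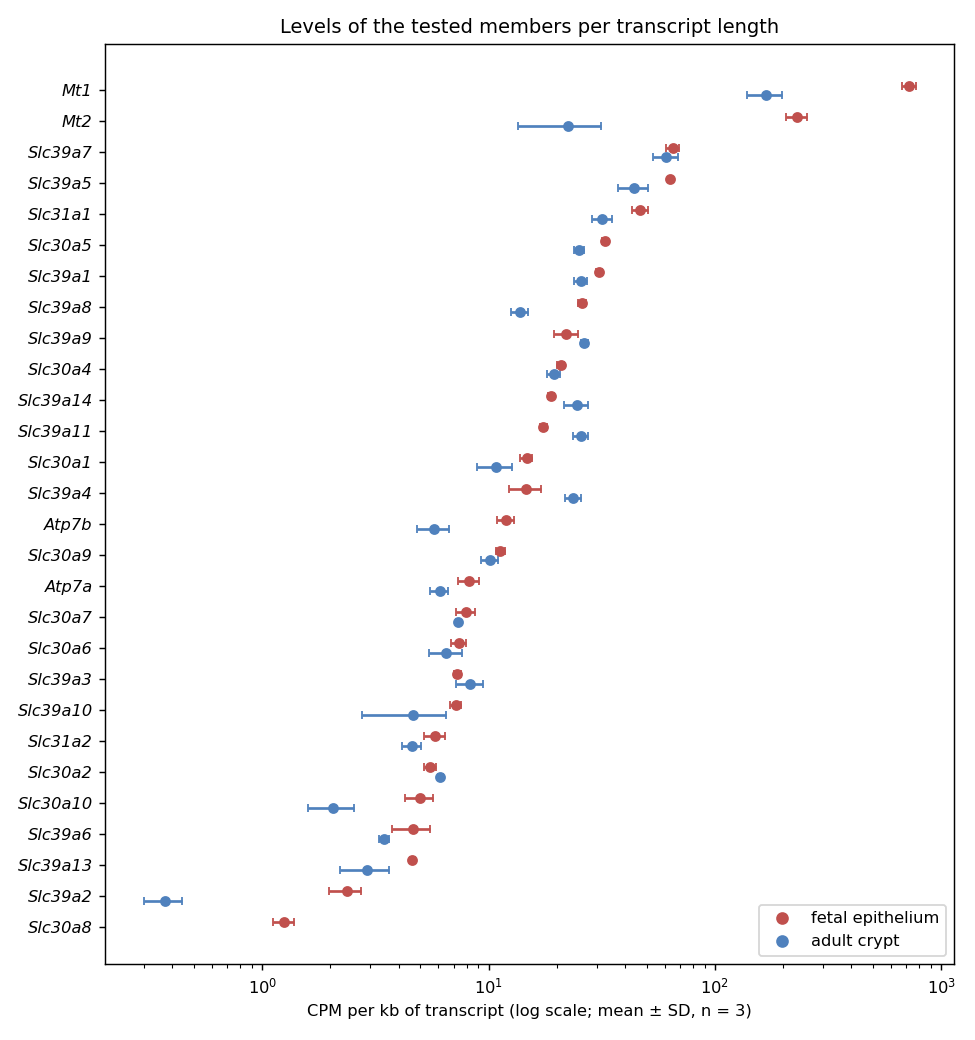
CPM per kb of transcript on a log scale for each tested gene, mean and SD of 3 libraries, fetal epithelium drawn just above adult crypt in each row. Mt1 and Mt2 lie far right of the transporters in fetal epithelium, and Slc30a8 has no adult point because it had 0 counts there.

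Summed over families, the metallothioneins had the widest gap between the groups. Their CPM summed to 531, 543 and 468 in the fetal libraries and to 85.9, 102 and 124 in the adult crypt libraries. The 4 copper genes summed to 281, 295 and 329.9 against 191, 201 and 190.0 CPM, and the 10 Slc30 genes to 483, 484 and 519 against 418, 393 and 427 CPM. The 14 Slc39 genes overlapped between the groups in sum, at 803, 853 and 857 CPM against 809, 837 and 771 CPM. Without Mt1 and Mt2 the 26 other tested genes held 13 calls higher and 4 lower, with a median of 0.35. Over all tested genes, 29% were called higher and 25.9% lower, with a median of 0.01.

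**Figure D5:**
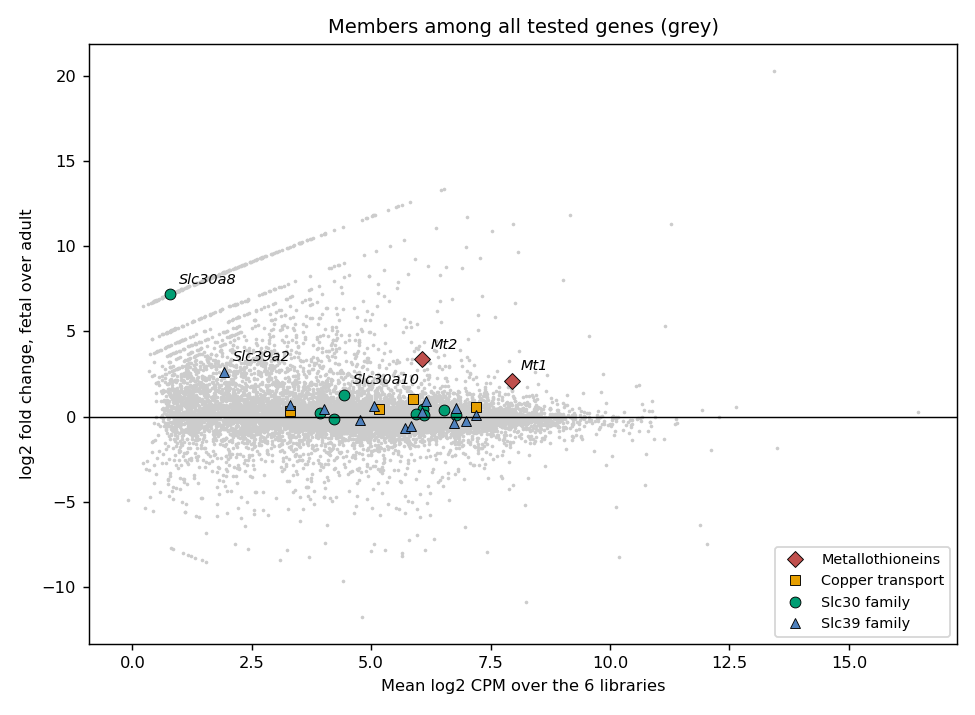
Log2 fold change of fetal over adult crypt epithelium against mean log2 CPM for all 13311 tested genes (grey) and for the genes of the set by family. Most transporters lie within the bulk of the grey points near 0, while Mt1 and Mt2 lie above it at high CPM.

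Variation between libraries was small for most of the set. Over the 26 tested genes with at least 100 adult counts, the median coefficient of variation was 6.53% in fetal and 9.59% in adult crypt epithelium. The highest values were 18.9% for Slc39a6 in fetal and 40.3% for Slc39a10 in adult cells.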

How the data were processed

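RNA-seq counts of 6 in vivo libraries were analysed, 3 of E16.5 fetal epithelium and 3 of adult crypt epithelium, grouped by sample title. The authors deposited whole-number read counts per gene, without normalization, judging by the values. Build mm10 and edgeR are named in the submitters' processing notes. Aligner, counter, annotation, strand setting and filters: not given in the sources used here. Adult libraries were made with a stranded total RNA kit for low input, per the labels' protocols, and the kit of the fetal libraries is not stated there. In all, 7 entries lacking a symbol (0.00343% of counts) were left out. The ribosomal RNA precursor Rn45s took 7.32% to 10.7% of a library.

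The quasi-likelihood test of edgeR 4.0.16 (R 4.3.3) was run on all genes that passed filterByExpr by group, with TMM scaling and no covariate. Genes were called at an adjusted p under 0.05 (Benjamini-Hochberg). Each standard error is approximate, the log2 fold change divided by the square root of F. CPM values use TMM-adjusted library sizes. Lengths are of APPRIS-principal transcripts in GENCODE M21. Coordinates and sequences before annotated starts are from RefSeq, GRCm38.p6, with coordinates found for 32 genes by Entrez identifier and windows for 28. A fold against 0 counts uses a floor of 3 counts over the group. Members and lists were chosen with earlier results of these data known. Genes given in full were Mt1, Mt2, the copper genes, Slc30a1, Slc39a4, Slc39a5 and called members over 2-fold. Of each further list, up to 4 called genes with the smallest p and genes not expressed were named; other genes were singled out for their role after their values were seen. Of the 55 further genes 54 were in the table and 46 were tested.

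Replicate libraries differed beyond counting noise (chi-square per gene of at least 5.08). Separate animals are not stated in the labels, and p-values therefore measure only how far these libraries scatter, which may be technical. The test was checked on simulated counts of 13115 genes. It recovered 87% of 2-fold and 95.9% of 4-fold changes, and 6.22% of its calls were false. The simulation changed few genes and gave every gene the same scatter. It therefore does not show how the test behaves where 54.8% of genes are called, as here. Alternatives were size factors by RLE, unscaled library size, DESeq2 1.42.0, no filter, leaving out Rn45s, leaving out each library and a replicate block.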

Additional observations from a re-analysis of the deposited data

How the results depend on the processing

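No direction of the 28 tested genes reversed in 336 refitted values, and 320 of these stayed on the same side of the threshold. The 14 lost and 2 gained calls belonged to 5 genes: Slc39a1, Slc39a9, Slc39a10 and Slc39a13 lost calls, and Slc39a6 was called with library size only (adjusted p = 0.0408, edgeR) and without fetal replicate 3 (adjusted p = 0.0129, edgeR). Calls numbered 13 to 16 higher and 3 to 4 lower over the settings. The median log2 fold change of the set was 0.44 with library size only, where the median of all tested genes was 0.05, and lay between 0.34 and 0.41 when single libraries were left out. The same replicate numbers do not pair the libraries (correlations of deviations −0.07, −0.04 and −0.10, and 0 of the 6 libraries correlated best with its own number). With the replicate block, 15 genes were higher and 3 lower, with a median of 0.39, and 6886 genes were called in all, against 7301 without it; Slc39a9 lost its call (adjusted p = 0.0519, edgeR), and no other gene of the set changed. Without the filter all 32 genes were tested, 15 higher and 4 lower, and the median of all genes was 0.13. Depth limits Mt3, Mt4, Slc30a3 and Slc39a12, and the size of the Slc30a8 difference, whose fitted log2 ran from 6.27 (DESeq2) to 7.24.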
